A study of Mus musculus with 33 samples.

Results

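The cholesterol synthesis genes described here are 8 mouse genes, found by symbol in the deposited gene table, where each had its own row (8 of 56414 rows). They comprise 6 enzymes (Hmgcs1, Idi1, Fdft1, Sqle, Lss and Cyp51) and 2 controllers of the pathway (Insig1 and Srebf2). All samples came from tumour-free C57Bl/6 mice. Nicotinamide (NAM), which is vitamin B3 in its amide form, was given at 0.5% in the water over a period of 1, 3 or 14 days, and the comparison group was left untreated, to see which transcripts change in lymphoid organs and when. PolyA RNA was sequenced from 20 libraries labelled spleen, with 5 in each of the 4 groups. A further 13 were labelled lymph node, of which 3 were untreated, 2 taken at 1 day and 4 each at 3 and 14 days. The study's methods place the animals in one experiment on females, no transgene or tumour is given for these groups, and the age of each animal is not in the labels. The labels do not tie libraries to single animals, so p-values measure only the spread between these libraries, part of which may be technical.

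Cells make cholesterol from acetyl-CoA through mevalonate, isoprenoids, squalene and lanosterol. When membrane sterol falls, the SREBP-2 precursor encoded by Srebf2 is carried to the Golgi, cleaved, and its released part enters the nucleus to switch on the genes of the pathway, its own gene among them. INSIG proteins hold the precursor in the endoplasmic reticulum when sterol is plentiful. In lymphoid tissue the pathway is best known for supplying membrane and isoprenoids to dividing lymphocytes and for feeding oxysterols that guide B cells.

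The tissue labels did not match their marker genes. Glycam1, a mucin made by high endothelial venules of lymph nodes, measured 108170 to 214210 normalised read counts over the 20 libraries labelled spleen and 1.59 to 12.4 over the 13 labelled lymph node. Spic, a factor of red pulp macrophages in the spleen, measured 774 to 1295 in the former and 6117 to 10491 in the latter. The 2 sets are therefore called only as labelled, a limit on the tissue that each result is given for. Whole reads per library numbered 18325061 to 54830743 under the spleen label, where each of the 3 day libraries held at least 43632016, and 30424968 to 46733974 under the lymph node label.

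SREBP proteins recognise sterol regulatory elements, and the promoters of genes they switch on often hold CCAAT and GC boxes beside them. The sequences below show where such letters lie in front of the 3 members that passed a test against untreated libraries (Srebf2, Idi1 and Hmgcs1) and of Insig1, which varied most with another cell type's markers. Each runs 5′ to 3′ over the 250 bases before the RefSeq start on GRCm38.p6, where 6 of the 8 genes matched an entry (not Sqle or Fdft1). The gene starts of Srebf2 and Insig1 given further on, 82147203 and 28071360, lie inside their windows. Capitals mark CCAAT or its reverse complement, and the 9 letters closest to the sterol element TCACNCCAC (N is any base, either strand) if they hold at most 1 mismatch.
Srebf2 (chr15:82147019-82147268, + strand): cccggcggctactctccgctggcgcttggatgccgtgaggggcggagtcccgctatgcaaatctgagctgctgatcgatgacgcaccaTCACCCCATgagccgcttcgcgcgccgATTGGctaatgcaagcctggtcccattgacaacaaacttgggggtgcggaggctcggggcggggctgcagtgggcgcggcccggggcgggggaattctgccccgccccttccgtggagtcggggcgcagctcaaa
Idi1 (chr13:8885356-8885605, + strand): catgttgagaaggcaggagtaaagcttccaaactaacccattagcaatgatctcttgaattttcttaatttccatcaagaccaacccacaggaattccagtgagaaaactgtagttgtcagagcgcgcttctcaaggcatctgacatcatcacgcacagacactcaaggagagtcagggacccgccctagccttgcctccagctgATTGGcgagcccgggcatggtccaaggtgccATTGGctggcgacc
Hmgcs1 (chr13:119690101-119690350, + strand): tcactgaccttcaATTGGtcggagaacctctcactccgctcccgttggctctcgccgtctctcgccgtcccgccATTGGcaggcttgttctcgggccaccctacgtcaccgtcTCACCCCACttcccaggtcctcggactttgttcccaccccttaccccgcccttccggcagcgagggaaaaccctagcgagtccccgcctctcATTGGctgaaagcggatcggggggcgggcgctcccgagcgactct
Insig1 (chr5:28071162-28071411, + strand): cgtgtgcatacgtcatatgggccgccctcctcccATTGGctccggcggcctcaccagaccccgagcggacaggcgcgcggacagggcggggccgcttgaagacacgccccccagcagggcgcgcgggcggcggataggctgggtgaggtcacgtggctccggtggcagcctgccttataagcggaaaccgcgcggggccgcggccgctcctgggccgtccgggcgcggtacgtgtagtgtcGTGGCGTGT

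The element stood whole in the Hmgcs1 window, where it begins 137 bases before the start, and in 1.05% of 32851 windows of the same length. In the Srebf2 window TCACCCCAT, which begins 162 bases before the start, differs from it by C9T, counted from 1 at the element's first letter. On the other strand of the Insig1 window, past the gene start given further on, ACACGCCAC differs by T1A. In the Cyp51 window, not shown, TGACGCCAC differs by C2G. Windows with at most 1 mismatch made up 20.7% of all windows, and 4 of the 6 of the members. CCAAT stood in 6 of 6 member windows and 33.8% of all windows, and the GC box GGGCGG in 6 of 6 and 32.7%. These matches describe letters and were not measured as binding sites.

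An intron of Srebf2 also carries miR-33, a microRNA known to repress cholesterol export. Its 5p strand is shown because it is made from the same transcript as the member with the largest called change, and small RNAs were not measured in these libraries. The sequence is from RefSeq (GRCm38.p6, chr15:82198127-82198147, + strand), with the seed, bases 2 to 8, in capitals.
mmu-miR-33-5p: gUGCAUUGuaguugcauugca

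Srebf2 lies on chromosome 15 from 82147203 to 82205376 of mm10 (GENCODE M21). Under the spleen label it fell at 1 and 3 days of NAM, and at 14 days it was higher than at 1 day. Untreated libraries measured 2434, 2140, 2121, 2150 and 2493 normalised read counts, that is, whole reads divided by a factor for the library's depth. Libraries at 1 day measured 1363, 1288, 1518, 1415 and 1416. All 5 lay below all 5 untreated libraries, the lowest of which stood 602.7 counts above the highest treated one. The log2 fold change was -0.69 ± 0.10 (SE, n = 5 each), a 1.62-fold fall with a limma adjusted p of 0.00042. Fold changes here are on the scale log2(normalised count + 1), and p-values were adjusted over all rows tested in the label. In bulk tissue, fewer cells of a type and less RNA per cell cannot be told apart.

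At 3 days Srebf2 measured 2071, 1554, 1490, 1779 and 1504, again with no overlap with untreated libraries, although replicate 1 lay 49.6 counts below the lowest of them. The log2 fold change was -0.44 ± 0.10 (SE, n = 5 each; limma adjusted p = 0.018). At 14 days it measured 2439, 1895, 1872, 2356 and 1761, of which 3 lay below all untreated libraries and 2 among them. That difference, -0.14 ± 0.10 on the log2 scale, did not pass the test (limma adjusted p = 1). Compared directly, the 14 day libraries were higher than those at 1 day by 0.55 ± 0.10 on the log2 scale (limma adjusted p = 0.0031), with 5 of 5 above every 1 day library. From low to high, the group means were 1400 ± 84.2 at 1 day, 1680 ± 248 at 3 days, 2065 ± 309 at 14 days and 2268 ± 181 untreated (SD, n = 5 each), and the 14 day and untreated libraries overlapped.

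Over 12 alternatives the 1 day call of Srebf2 held in 12, with log2 fold changes of -0.74 to -0.64 and adjusted p of 4.7e-08 to 0.00068. The 3 day call held in 10 of 12, and it was lost when only the 2 groups compared entered the fit (adjusted p = 0.052; range over the alternatives 0.00013 to 0.052), under the 1.5-fold rule, and without replicate 2, 3 or 5 at 3 days (0.055, 0.068 and 0.068).

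Idi1, on chromosome 13 from 8885606 to 8892451, encodes the isomerase that interconverts the 5-carbon building blocks of isoprenoids. It rose at 3 days under the spleen label. Untreated libraries measured 1770, 1555, 1943, 1632 and 1574 normalised read counts, and libraries at 3 days 2182, 2231, 3306, 2383 and 2361. All 5 treated libraries lay above all untreated ones, and replicate 3 stood well above the other 4. The log2 fold change was 0.54 ± 0.11 (SE, n = 5 each; limma adjusted p = 0.011), a 1.46-fold rise. Without replicate 3 it was 0.44 with an adjusted p of 0.034, against 0.0013 to 0.035 over the 10 replicates left out in turn.

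At 1 day Idi1 measured 1690, 2001, 1984, 2003 and 1716, overlapping the untreated libraries (log2 difference 0.15 ± 0.11, limma adjusted p = 0.35). At 14 days the range of 1466 to 1971 enclosed the untreated values (log2 difference -0.0012 ± 0.11). The group means were thus 1695 ± 162 untreated, 1697 ± 203 at 14 days, 1879 ± 161 at 1 day and 2493 ± 463 at 3 days (SD, n = 5 each), and the 3 lower ones overlapped. The 3 day call was lost when only the 2 groups compared entered the fit (adjusted p = 0.051; range 0.0002 to 0.051) and under the 1.5-fold rule.

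**Figure D1:**
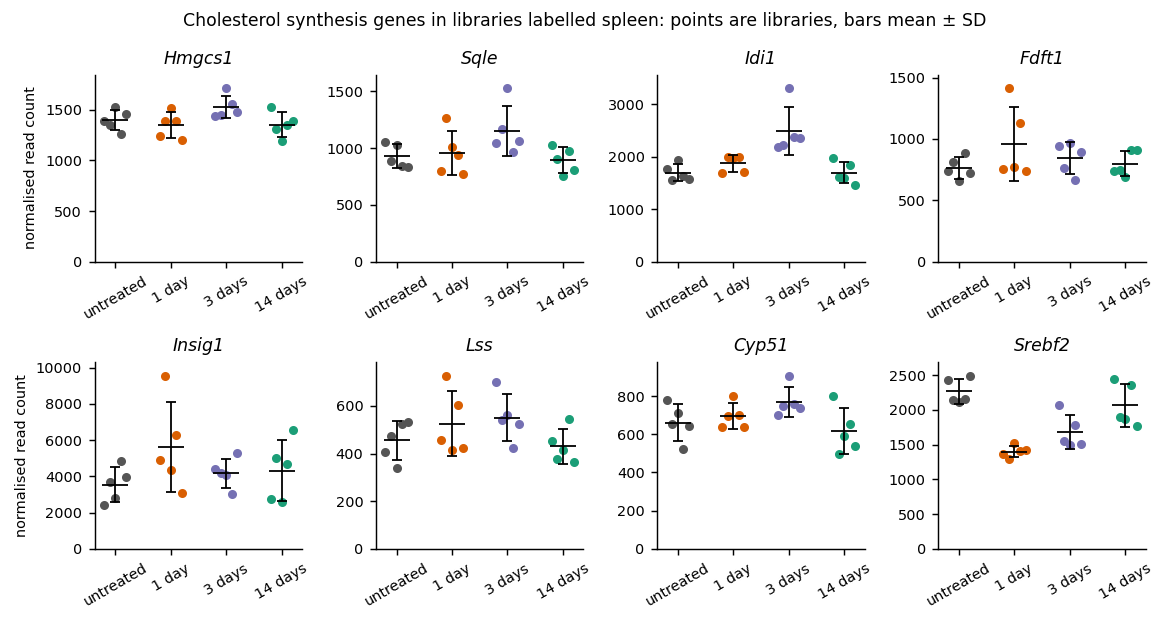
Normalised read counts (y axis, linear, from 0) of the 8 genes in libraries labelled spleen, by time on NAM (x axis). Points are libraries and bars give mean ± SD (n = 5). Srebf2 at 1 day, 1288 to 1518, and Idi1 at 3 days, 2182 to 3306, lie apart from the untreated libraries, while Insig1 spreads from 3092 to 9554 at 1 day.

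Counted over the 8 genes, limma called 1 lower (Srebf2) and 0 higher at 1 day under the spleen label, beside 16.6% of 18243 rows called in either direction and 8.05% called lower. The unadjusted p was under 0.05 for 2 members (Insig1 and Srebf2), beside 30.9% of rows, and edgeR and DESeq2 each called Srebf2 only, beside 16.3% and 18.5% of rows. Groups did not overlap for 1 of 8 members, beside 11.9% of rows. The median log2 difference of the members was 0.11, against 0.0054 over all rows. At 3 days it called 1 higher (Idi1) and 1 lower (Srebf2), beside 5.55% of rows called, 2.82% higher and 2.74% lower, with a member median of 0.24 against 0.00066. Groups did not overlap for 2 of 8 members, beside 5.06% of rows. With 8 genes, 1 call at 1 day is close to the share over all rows. Both comparisons used the same untreated libraries.

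At 14 days limma called 0 of 8 members and 0 of all rows, 0% (unadjusted p under 0.05 for 0 members and 510 rows, with edgeR calling 0 rows and DESeq2 calling 1). Beside Srebf2 and Idi1, the log2 differences were -0.05 for Hmgcs1, -0.06 for Sqle, 0.07 for Fdft1, 0.24 for Insig1, -0.08 for Lss and -0.11 for Cyp51. Leaving out 1 library gave -0.09 to -0.0055 for Hmgcs1, -0.12 to -0.0027 for Sqle and 0.02 to 0.13 for Fdft1. It gave 0.06 to 0.40 for Insig1, -0.18 to -0.01 for Lss and -0.21 to -0.04 for Cyp51. Between 14 and 1 day limma called Srebf2 alone, as higher, beside 10.6% of rows called and 5.22% higher, and the other 7 members differed by -0.37 (Insig1), -0.27 (Lss), -0.22 (Fdft1), -0.19 (Cyp51), -0.15 (Idi1), -0.09 (Sqle) and 0.0078 (Hmgcs1) on the log2 scale. Without replicate 2 at 1 day the first 3 of these were -0.15, -0.14 and -0.07, and that of Sqle was 0.02. Groups did not overlap for 1 of 8 members there, beside 9.69% of rows.

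Fdft1, Sqle, Lss and Cyp51 act in order from farnesyl diphosphate to the first steps after lanosterol, and none passed the test under the spleen label. Sqle, the squalene epoxidase on chromosome 15 from 59315075 to 59331193, measured 837 to 1051 in untreated libraries and 1046, 1166, 1526, 968 and 1063 at 3 days (log2 difference 0.30 ± 0.13, limma adjusted p = 0.20). At 3 days Sqle lay above every untreated value in 3 of 5 libraries. Cyp51, the lanosterol demethylase on chromosome 5 from 4080674 to 4104697, measured 521 to 777 in untreated libraries and 702, 747, 906, 757 and 735 at 3 days (0.23 ± 0.12, adjusted p = 0.29). With library weights both passed, at adjusted p of 0.013 and 0.035 (ranges over the alternatives 0.013 to 0.31 and 0.035 to 0.42), a setting under which 25.9% of all rows were called in place of 5.55%. The difference of Sqle was 0.19 without replicate 3 at 3 days, and that of Cyp51 was 0.14 without untreated replicate 4. At 1 day they differed by 0.03 and 0.08.

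Fdft1, the squalene synthase on chromosome 14 from 63145153 to 63179579, measured 653 to 885 in untreated libraries and 754, 1411, 769, 1128 and 737 at 1 day. Its 1 day values were high in replicates 2 and 4 and within the untreated range in the other 3 (log2 difference 0.29 ± 0.16, limma adjusted p = 0.22), and without replicate 2 the difference was 0.14. Lss, the lanosterol synthase on chromosome 10 from 76531605 to 76557138, showed the same 2 libraries on top, at 727 and 604, with the others at 415 to 457 against 338 to 534 untreated (0.19 ± 0.17, adjusted p = 0.46, and 0.07 without replicate 2). At 3 days Fdft1, Lss and Insig1 differed from untreated by 0.15, 0.28 and 0.26 on the log2 scale (adjusted p of 0.36 to 0.65). These were 0.09 and 0.18 for Fdft1 and Lss without untreated replicate 3, and 0.13 for Insig1 without untreated replicate 1. Hmgcs1, which makes HMG-CoA, on chromosome 13 from 119690351 to 119708260, varied little. Its group means ran from 1348 ± 127 at 1 day to 1529 ± 112 at 3 days (SD, n = 5 each), and all log2 differences from untreated lay between -0.06 and 0.13.

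Some reads may be shared with neighbours, since the sources used here do not state whether counting used strand. Exons of Hmgcs1, Idi1, Fdft1, Lss and Cyp51 overlap those of Gm48342, Gm48574, Ctsb, 4930483K19Rik and Akap9 in turn. No exon of Sqle, Insig1 or Srebf2 overlaps another gene in that annotation.

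Insig1 encodes the protein that retains the SREBP precursor, and is itself a target of SREBP and, in fat cells, a highly expressed gene. It lies on chromosome 5 from 28071360 to 28078661. Under the spleen label it measured 2429, 3679, 2798, 4860 and 3942 in untreated libraries and 4878, 9554, 4333, 6254 and 3092 at 1 day. Replicates 1, 2 and 4 lay above all untreated libraries and the other 2 among them. The log2 difference of 0.61 ± 0.28 (SE, n = 5 each) did not pass the test (limma adjusted p = 0.15), though it was past an unadjusted p of 0.05 and a 1.5-fold change together, as were 8.21% of rows. Without replicate 2 at 1 day, the highest of them, the difference was 0.39 (adjusted p = 0.35, against 0.056 to 0.35 over the 10 replicates left out in turn).

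The level of Insig1 moved with markers of fat cells. The 8 adipocyte markers (Adipoq, Plin1, Plin4, Cidec, Cfd, Lep, Retn and Car3) were all above a mean of 10 normalised counts under the spleen label, and their sum spanned 26549 to 154094 in untreated libraries and 87390 to 364145 after 1 day. After 3 days it spanned 42565 to 169779, and after 14 days 33768 to 186814. Of the 8, Retn passed the test at 1 day. Their mean log2 level, used as a score, ran from 10.56 to 14.51. In a fit with the 4 groups and this score, added after the data were seen, Insig1 rose by 0.46 ± 0.053 on the log2 scale for each unit of the score (limma adjusted p = 8.9e-07).

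Fdft1 (0.21 ± 0.046, limma adjusted p = 0.0012) and Lss (0.19 ± 0.056, adjusted p = 0.014) rose with the score too, so that 3 of the 8 members were called, beside 32.2% of 18243 rows. With 8 genes, 3 calls are close to that share. Over 27 settings Insig1 and Fdft1 were called in 27, Lss in 26 and Cyp51 in 1. In the main fit the other 5 members had coefficients of -0.10 to 0.025 and were not called (limma adjusted p of 0.090 to 0.79). With the score in the fit, the 1 day log2 differences were 0.13 in place of 0.61 for Insig1, 0.07 in place of 0.29 for Fdft1 and 0.0032 in place of 0.19 for Lss. At 3 days they were 0.06, 0.06 and 0.20 for Insig1, Fdft1 and Lss in turn. That of Srebf2 at 1 day was -0.64 in place of -0.69 and the 3 day difference of Idi1 was 0.56 in place of 0.54. Under the lymph node label the 8 adipocyte markers summed to 24.3 to 266, 3 of 18215 rows (0.0165%) followed the score, and none of the 8 members did. Whether fat cells in the libraries caused the differences of Insig1, Fdft1 and Lss was not tested.

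**Figure D2:**
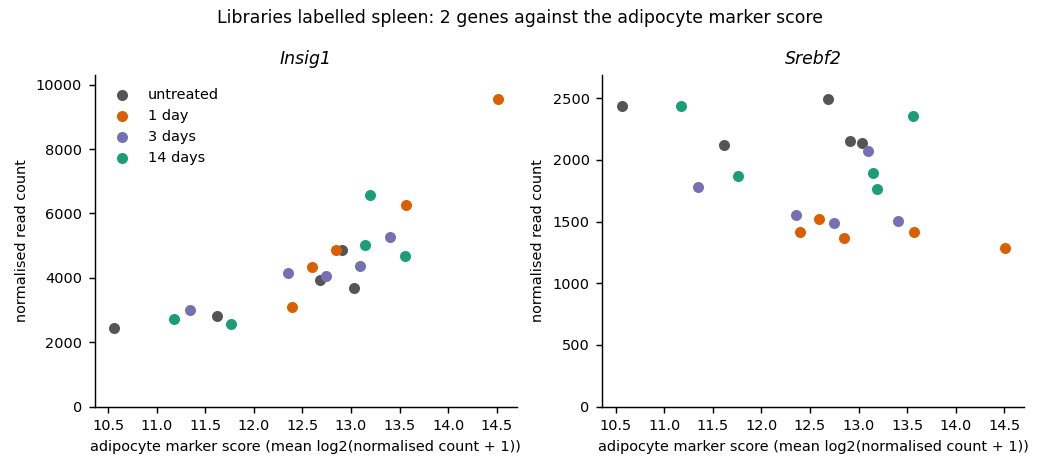
Normalised read counts of Insig1 (left) and Srebf2 (right) in the 20 libraries labelled spleen against the adipocyte marker score, the mean log2(normalised count + 1) of 8 markers. Each point is a library, coloured by group. Insig1 climbs from 2429 to 9554 along the score, while Srebf2 in the 5 libraries at 1 day stays at 1288 to 1518 across scores of 12.39 to 14.51.

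Libraries labelled spleen divided on the second principal component of all rows tested, which held 13.58% of the variance. The 9 above 0 were all those at 1 day and 4 at 3 days, and the 11 below were the untreated and 14 day libraries and replicate 1 at 3 days. Srebf2 measured 1288 to 1779 (median 1490) in the 9 and 1761 to 2493 (median 2140) in the 11. Its replicate 1 at 3 days, at 2071, stood with the higher set. Idi1 measured 1690 to 3306 in the 9 and 1466 to 2182 in the 11. The labels give no batch. All untreated libraries lay below 0, so at 1 day the treatment cannot be told apart from the division. At 3 days depth differed too, with at least 43632016 whole reads per library against at most 31486631 in untreated ones. The part of this difference in the 3 day values of Srebf2 and Idi1 was not tested. Of other cells' markers, 1 of 6 for red pulp macrophages (Treml4) and 1 of 4 for venules (Madcam1) were called lower by limma at 1 and 3 days, while 0 of 8 proliferation, 4 B cell and 5 T cell markers were called at either time.

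In the libraries labelled lymph node, Hmgcs1 was the member that changed, and it fell at 1 day. Untreated libraries measured 1823, 1787 and 1567 normalised read counts and the 2 libraries at 1 day 1277 and 1347. Both treated libraries lay below all 3 untreated ones. The log2 fold change was -0.39 ± 0.088 (SE, n = 3 untreated and 2 treated), a 1.31-fold fall with a limma adjusted p of 0.041. It held in 7 of 12 alternatives (adjusted p of 0.0021 to 0.087) and in 1 of the 5 fits without a replicate (0.029 without untreated replicate 3, and 0.10 to 0.19 without any other), while the log2 fold change stayed at -0.46 to -0.35 in those 5. The fits without a treated replicate leave 1 library at 1 day, which is assumed to vary like the other groups. One of the 2 treated libraries, replicate 1, also held 98150 normalised counts over 8 exocrine pancreas markers, against 14.5 in the other. Without replicate 1 the log2 fold change was -0.35 (adjusted p = 0.19).

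At 1 day the other 7 members also had log2 differences below 0, from -0.43 to -0.02, and the member median was -0.17 against -0.00048 over all rows. Sqle measured 988 and 721 against 1076, 1311 and 1035 untreated (-0.43 ± 0.18, limma adjusted p = 0.27), and Idi1 1717 and 1430 against 2125, 1922 and 1809 (-0.31 ± 0.13, adjusted p = 0.26). Insig1, Cyp51, Lss and Fdft1 differed by -0.16, -0.11, -0.05 and -0.02 in turn. These sizes rested on single libraries. Without replicate 2 at 1 day the differences were -0.20 for Sqle, -0.18 for Idi1 and -0.08 for Insig1, and those of Fdft1 and Lss were above 0 (0.04 and 0.01). Without replicate 1 at 1 day that of Sqle was -0.65, and without untreated replicate 1 that of Fdft1 was 0.0068. Limma thus called 1 of 8 members lower and 0 higher, beside 1.21% of 18215 rows called and 0.329% lower. Groups did not overlap for 5 of 8 members (Hmgcs1, Sqle, Idi1, Insig1 and Srebf2), beside 32.6% of rows.

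At 3 days limma called 0 of 8 members, beside 1.24% of rows, and 0 had an unadjusted p under 0.05, beside 14.8%. Hmgcs1 measured 1685, 1761, 1749 and 1579, all within the untreated values of 1567 to 1823. Cyp51 and Fdft1 differed by 0.18 and 0.17 on the log2 scale, Idi1 by 0.04, and Lss, Insig1, Hmgcs1 and Sqle by -0.01, -0.02, -0.03 and -0.09. Leaving out 1 library gave 0.10 to 0.25 for Cyp51 and 0.12 to 0.23 for Fdft1. It gave values on both sides of 0 for Idi1, Lss, Insig1, Hmgcs1 and Sqle. At 14 days limma called 0 of 8, beside 0.791% of rows, and Idi1 alone had an unadjusted p under 0.05, beside 11.8%. Idi1 then measured 1509, 1841, 1440 and 1770, of which 3 lay below all untreated libraries (log2 difference -0.26 ± 0.11, adjusted p = 0.35). The differences then were -0.31 for Sqle, -0.14 for Hmgcs1, -0.12 for Insig1, -0.11 for Lss, -0.03 for Cyp51 and -0.01 for Fdft1. Without 1 library these ran from -0.40 to -0.21 for Sqle, -0.21 to -0.10 for Hmgcs1 and -0.16 to -0.08 for Insig1. They ran from -0.17 to -0.06 for Lss, -0.11 to 0.04 for Cyp51 and -0.08 to 0.09 for Fdft1. Of 8 proliferation markers, 0 were called at 3 or 14 days, with median log2 differences of -0.29 and -0.31, and their sum spanned 17534 to 22364 at 14 days against 20531 to 25611 untreated. Their part in the values of the members was not tested. Between 14 and 3 days it called 0 of 8, beside 0.011% of rows, with Idi1 again the member with an unadjusted p under 0.05, beside 5.84% of rows (-0.29 ± 0.099, adjusted p = 0.65), beside -0.22 for Sqle, -0.21 for Cyp51, -0.19 for Fdft1, -0.12 for Hmgcs1, -0.10 for Insig1 and Lss and 0.02 for Srebf2. In each of these comparisons edgeR and DESeq2 called 0 members too. The 3 comparisons with untreated libraries shared those 3 libraries.

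Srebf2 under the lymph node label measured 1052, 1209 and 1041 in untreated libraries, 975 and 951 at 1 day, 802, 883, 962 and 1236 at 3 days, and 997, 1181, 849 and 897 at 14 days. Its log2 differences were -0.19 ± 0.15, -0.20 ± 0.13 and -0.17 ± 0.13 in turn, and none passed the test (limma adjusted p of 0.50 to 0.65). Leaving out 1 library gave -0.23 to -0.12 at 1 day (nearest 0 without untreated replicate 2), -0.32 to -0.11 at 3 days (without replicate 4 and replicate 1 at 3 days) and -0.27 to -0.11 at 14 days (without replicate 2 at 14 days and untreated replicate 2). The highest of its 13 values was a treated library at 3 days. Insig1 stayed between 2346 and 3022 in all 13 libraries. Of 8 erythroid markers, 0 were called at 1 day (median log2 difference -0.59), 8 were called lower at 3 days and 3 at 14 days. Their sums were 20239 to 31486 in untreated libraries, against 2360 to 11948 and 9176 to 13755 at those times. Their part in the values of the members was not tested.

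**Figure D3:**
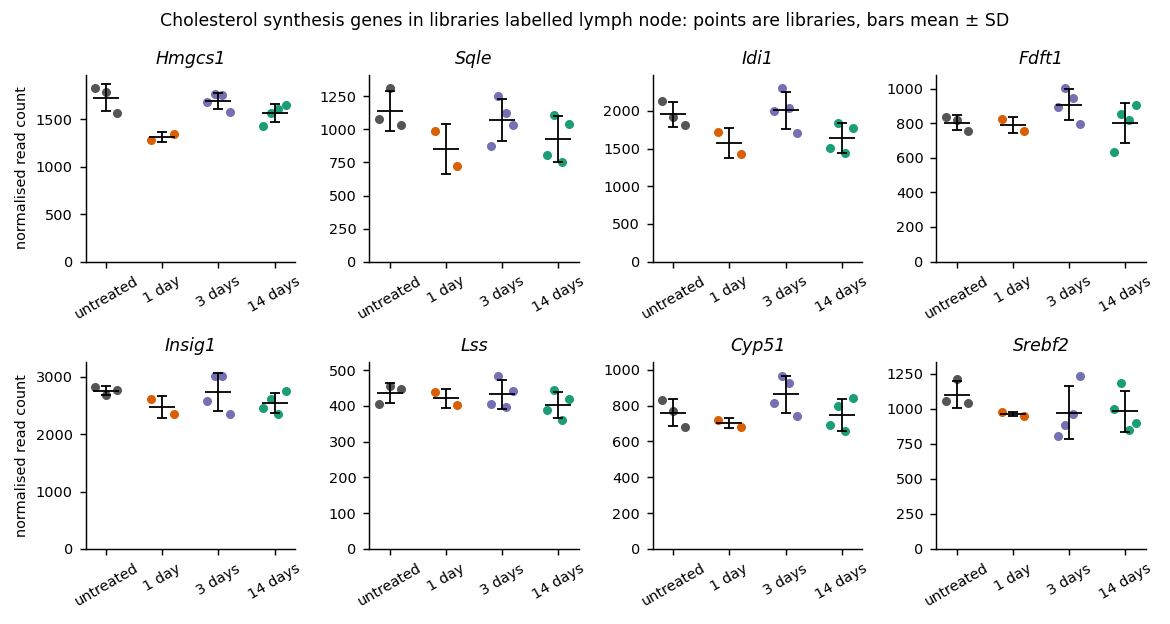
Normalised read counts (y axis, linear, from 0) of the 8 genes in libraries labelled lymph node, by time on NAM (x axis). Points are libraries and bars give mean ± SD (n = 3, 2, 4 and 4). Hmgcs1 at 1 day, 1277 and 1347, lies below the untreated libraries, and Insig1 keeps between 2346 and 3022.

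The change against untreated was compared between the labels in a fit over all 33 libraries and 17147 rows. At 1 day limma called 0 of 8 members, beside 1.69% of rows, and 3 had an unadjusted p under 0.05, beside 17.1% of rows. The change of Srebf2 was lower under the spleen label by -0.50 ± 0.19 on the log2 scale (adjusted p = 0.16), and those of Hmgcs1 (0.34 ± 0.12, adjusted p = 0.15) and Idi1 (0.46 ± 0.18, adjusted p = 0.18) were higher. Those of Insig1, Sqle, Fdft1, Lss and Cyp51 differed by 0.76 ± 0.41, 0.45 ± 0.24, 0.31 ± 0.25, 0.24 ± 0.25 and 0.19 ± 0.20 (adjusted p of 0.34 to 0.68). Single libraries moved these values. That of Sqle was 0.23 or 0.68 without replicate 2 or 1 of the lymph node label at 1 day, those of Fdft1 and Lss were 0.16 and 0.12 without replicate 2 of the spleen label at 1 day, and that of Cyp51 was 0.11 without untreated replicate 4 of the spleen label. At 3 days limma called 0 of 8, beside 0.735% of rows, and the difference for Idi1 was 0.51 ± 0.16 (adjusted p = 0.14). The others were 0.39 for Sqle, 0.29 for Lss, 0.28 for Insig1, 0.15 for Hmgcs1, 0.05 for Cyp51, -0.02 for Fdft1 and -0.24 for Srebf2. Without 1 library these ran from 0.19 to 0.38 for Lss, 0.15 to 0.40 for Insig1 and -0.33 to -0.12 for Srebf2. Those of Cyp51 and Fdft1 then fell on both sides of 0 (-0.04 to 0.13 and -0.09 to 0.06). At 14 days limma called 0 of 8, beside 0.14% of rows, and 0 had an unadjusted p under 0.05, beside 4.85% of rows, with differences of 0.35 for Insig1, 0.25 for Idi1 and Sqle, 0.09 for Hmgcs1, 0.08 for Fdft1, 0.04 for Lss, 0.03 for Srebf2 and -0.08 for Cyp51. The differences of Fdft1, Lss and Srebf2 at 14 days changed sign in some fits without 1 library. At each time edgeR and DESeq2 also called 0. The fall of Srebf2 under one label and its smaller differences under the other were therefore not shown to differ.

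**Figure D4:**
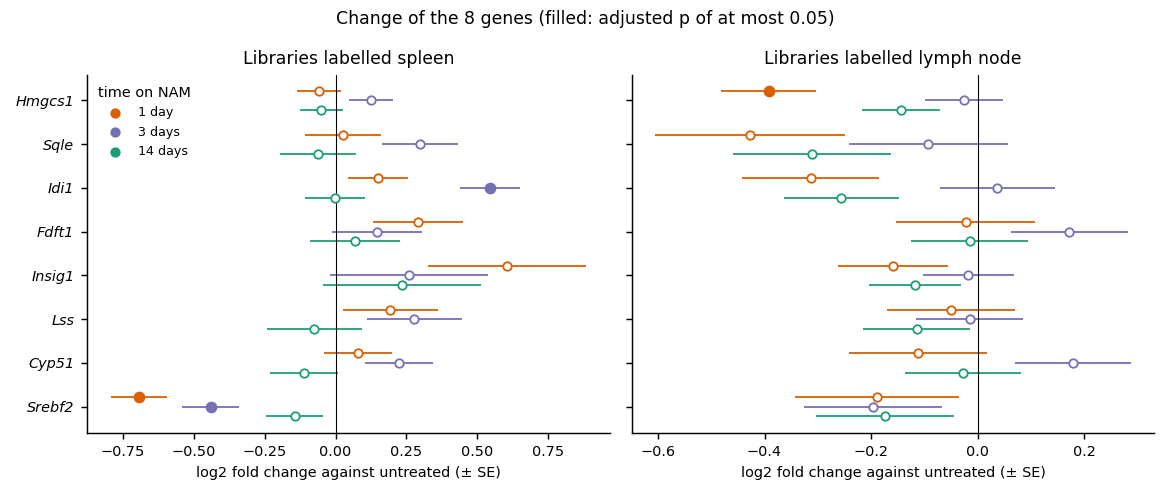
Log2 fold change against untreated (x axis, ± SE) of the 8 genes (y axis) at 1, 3 and 14 days of NAM in libraries labelled spleen (left) and lymph node (right). Filled points have a limma adjusted p of at most 0.05. These are Srebf2 at 1 and 3 days (-0.69 and -0.44) and Idi1 at 3 days (0.54) on the left, and Hmgcs1 at 1 day (-0.39) on the right.

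The members did not vary as one block under the spleen label. Correlations of log2 levels across the 20 libraries, given as descriptions since the libraries share groups and tissue, were positive for 20 of 28 pairs, with a median Pearson r of 0.20. Hmgcs1, Sqle, Idi1 and Cyp51 varied together (r = 0.73 to 0.84 over 6 pairs, and 0.63 to 0.81 after group means were removed). Fdft1, Insig1 and Lss, which followed the adipocyte score as did 32.2% of all rows, formed another set (0.53 to 0.82 over 3 pairs, and 0.53 to 0.79). Both sets were drawn after the values were seen. Pairs between them ran from -0.26 to 0.45. Srebf2 correlated with the other 7 at -0.51 to 0.05, with 1 of 7 positive, but at -0.35 to 0.37, with 4 of 7 positive, after group means were removed.

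Under the lymph node label 25 of 28 pairs were positive over 13 libraries (median r = 0.58), and 21 of 21 were without Srebf2 (0.13 to 0.86). After group means were removed 20 of those 21 were positive (-0.09 to 0.91). Against the mean of the other 7, Sqle and Idi1 were the most alike (r = 0.92 and 0.91) and Srebf2 the least (0.07). Under the spleen label Sqle again was highest (0.84) and Srebf2 lowest (-0.37). With group means removed the values for Srebf2 were 0.07 under the spleen label and -0.04 under the other, still the lowest of the 8 in each, and the highest were 0.78 (Sqle) and 0.88 (Cyp51). Outside the 8, the rows most like the mean of the members were Dll4 (r = 0.79), Nudt4 (0.78), 5930430L01Rik (0.77), Fam229b (0.76) and Btf3l4 (0.75) over the 20 libraries labelled spleen. Over the 13 labelled lymph node they were 9330175E14Rik (0.84), Gm14023 (0.81), Rap2c (0.81), Zkscan5 (0.79) and GSMG0008300 (0.79).

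The rest of the pathway was taken from 7 lists of sterol and lipid genes, which hold 52 genes besides the members. Under the spleen label, 5 of the 51 tested were called higher and 2 lower at 1 day, and 4 higher and 0 lower at 3 days, with median log2 differences of 0.07 and 0.06. These were 13.7% and 7.84% of the 51, beside 16.6% and 5.55% of all rows. Among the 16 other synthesis enzymes the calls were 3 higher and 1 lower at 1 day, then 3 higher (25% and 18.8% of the 16, beside the same 16.6% and 5.55%). Acat2, which joins acetyl-CoA units at the mouth of the pathway, rose from 542 ± 151 to 1273 ± 554 normalised read counts at 1 day and 1012 ± 197 at 3 days (SD, n = 5 each; log2 1.19 and 0.92, limma adjusted p = 0.0044 and 0.041), and a near copy of the gene, Acat3, may share its reads. Ggps1, which draws isoprenoids off to geranylgeranyl diphosphate, rose from 641 ± 40.0 to 817 ± 52.3 and 822 ± 51.1 (0.35 and 0.36, adjusted p = 0.0027 and 0.011), with no overlap at either time.

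Msmo1, the sterol C4-methyl oxidase, rose by 0.44 and 0.46 on the log2 scale at 1 and 3 days (limma adjusted p = 0.016 and 0.029), while Hsd17b7, a later enzyme of C4 demethylation, fell by 0.60 at 1 day (0.026). Among 5 control genes besides Srebf2 and Insig1, Insig2, the paralogue of Insig1, rose from 375 ± 39.0 to 570 ± 69.5 at 1 day and 506 ± 73.2 at 3 days (SD, n = 5 each; 0.60 and 0.42, adjusted p = 0.0017 and 0.031). Of 6 uptake genes tested, Npc2, a lysosomal sterol carrier, rose by 0.42 at 1 day (0.0037). Of 7 genes of esters and oxysterols, Soat2, a sterol acyltransferase, fell by 0.83 at 1 day (0.017). Between 14 and 1 day these 7 genes changed the other way, with log2 differences of -0.81 for Acat2, -0.34 for Ggps1, -0.38 for Msmo1, -0.52 for Insig2, -0.34 for Npc2, 0.57 for Hsd17b7 and 0.98 for Soat2 (limma adjusted p of 0.0055 to 0.047), on the same 1 day libraries, and Stard4, a sterol transporter, was lower too (-0.35, 0.034). The 8 calls were 15.7% of the 51, beside 10.6% of all rows.

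Limma called 0 of 7 efflux genes and 0 of 10 fatty acid synthesis genes at 1 or 3 days under the spleen label. An unadjusted p under 0.05 was seen for 0 and 1 of the former and for 2 and 1 of the latter, beside 30.9% and 22% of all rows. The latter's median log2 differences of 0.70 and 0.48 stood beside the spread of the adipocyte markers, whose part in them was not tested. Me1 and Fasn, which supply NADPH and palmitate in fat cells, differed most at 1 day (1.52 ± 0.67 and 1.12 ± 0.63, limma adjusted p = 0.12 and 0.24). At 14 days limma called 0 of the 51 genes, with an unadjusted p under 0.05 for 0.

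**Figure D5:**
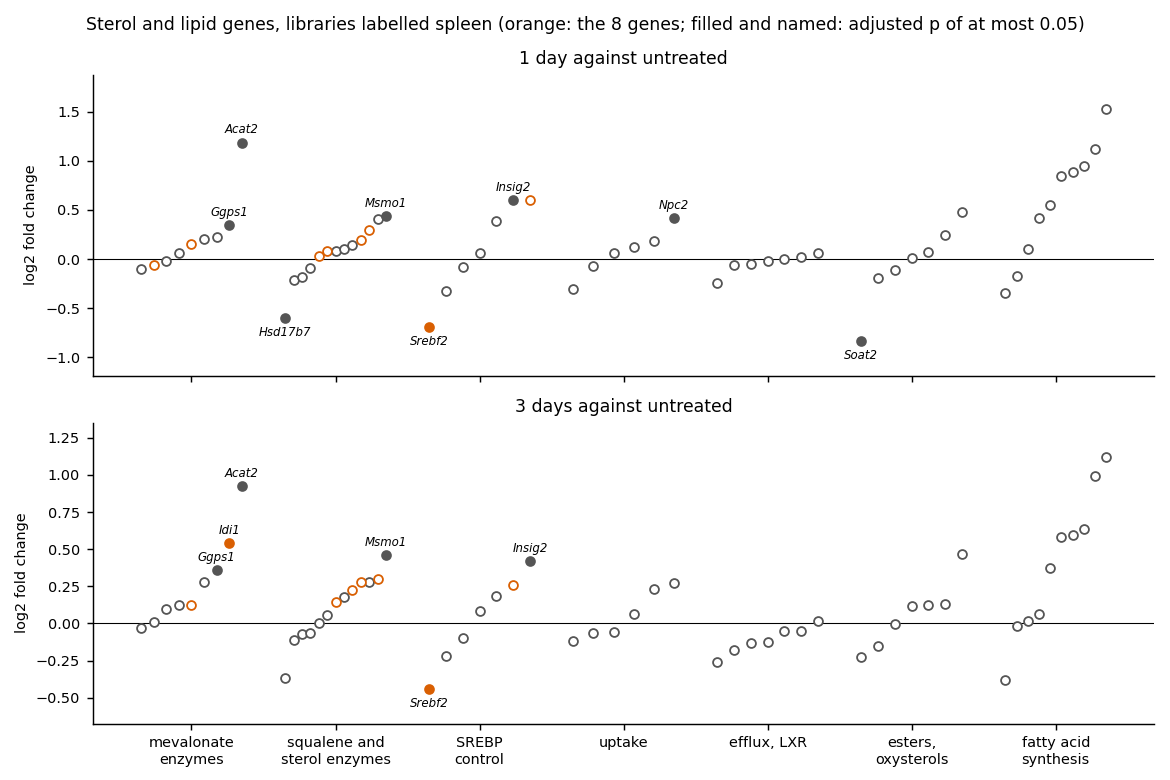
Log2 fold change against untreated (y axis) of each gene tested in 7 sterol and lipid lists (x axis) in libraries labelled spleen, at 1 day (top) and 3 days (bottom). Orange points are the 8 genes, and filled, named points have a limma adjusted p of at most 0.05. Acat2 (1.19 and 0.92) and Insig2 (0.60 and 0.42) lie highest among the named points at 1 day, and Srebf2 (-0.69 and -0.44) lies lowest in the control group.

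Under the lymph node label limma called 2 of the 51 genes higher and 0 lower at 1 day, 2 higher and 1 lower at 3 days, and 0 higher and 1 lower at 14 days. These were 3.92% and 5.88% of the 51 at 1 and 3 days, beside 1.21% and 1.24% of all rows, and 1 of 51 at 14 days, beside 0.791%. The 16 other synthesis enzymes held 0 of these calls (unadjusted p under 0.05 for 3, 5 and 4 in turn, beside 15%, 14.8% and 11.8% of all rows). The calls fell on genes of sterol export, oxysterols and uptake. Apoe, the apolipoprotein that carries cholesterol away from macrophages, rose by 0.75 at 1 day and 0.47 at 3 days on the log2 scale (limma adjusted p = 0.0011 and 0.0087). Ch25h, which makes 25-hydroxycholesterol, a known brake on SREBP processing, rose by 1.06 and 0.89 (0.020 and 0.017), from 95.9 to 159 normalised read counts in untreated libraries to 231 and 253 at 1 day and 187 to 231 at 3 days. Lipa, the lysosomal lipase that frees cholesterol from esters, fell by 0.33 at 3 days and 0.37 at 14 days (0.041 and 0.030). Of 6 red pulp macrophage markers 0 were called at 3 days and 1 lower at 14 days (median log2 differences -0.0063 and -0.24), and their sum spanned 54539 to 76860 and 44827 to 67836 against 74937 to 87282 untreated. Their part in the fall of Lipa was not tested. At 1 day only 2 libraries carried the lymph node label, and replicate 1 held 98150 normalised counts over 8 exocrine pancreas markers. What either library added to the 1 day changes of Apoe and Ch25h was not tested. The changes of Apoe and Ch25h at 1 day were lower under the spleen label than under the lymph node label (limma adjusted p = 0.019 and 0.017), for Ch25h by -1.17 ± 0.25 on the log2 scale. The difference between labels did not pass at 3 days (-0.65 for Apoe and -0.77 for Ch25h, adjusted p = 0.11 and 0.098) or at 14 days (-0.45 and -0.91, adjusted p = 0.91 and 0.14).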

How the data were processed

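PolyA RNA-seq libraries (33) of C57Bl/6 mice were grouped by the tissue and time in their titles, and 0 per-library columns were left unmapped. The authors deposited 1 table of normalised read counts per gene on mm10, a linear signal obtained by dividing read counts by DESeq2 size factors. The submitters' processing notes name STAR 2.4.0, and strand use in counting is not given in the sources used here. Paper and labels differ on whether tissue was stabilised or taken fresh. Values were whole multiples of 1 step per library (100.0% in the lowest library, within 0.1 of a read), which returned whole reads. The 2 labels were scaled separately. Of 56 replicate pairs, 0 were identical. Depth limits the precision of rows with few reads.

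Rows with a mean of at least 10 within a label were put on the scale log2(normalised count + 1) and tested by limma 3.58.1 (intensity trend, R 4.3.3), two-sided, in 1 fit per label, with Benjamini-Hochberg adjustment over 18243 rows (spleen label) or 18215 rows (lymph node label) at 0.05. Log2 fold changes on this scale understate those of low genes. The 8 genes and all lists were chosen with earlier results of these data known. Text names the 8 members in every comparison, the 2 largest rises and falls past the threshold per pathway list, the 5 rows most like the mean of the members per label, and Glycam1 and Spic. The lists cover mevalonate enzymes, sterol enzymes, SREBP control, uptake, efflux, esters and oxysterols, and fatty acid synthesis. Alternatives were pseudocounts of 0.1 and 5, no filter, TMM scaling, quantile normalisation, library weights, only the groups compared, the replicate block, an adipocyte score as covariate, unadjusted p with a 1.5-fold change, each replicate left out, and count tests on the recovered whole reads (edgeR 4.0.16; DESeq2 1.42.0). The coefficient of the adipocyte score was added after the data were seen. The fit was tested on simulated data.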

Additional observations from a re-analysis of the deposited data

Results flagged for a closer look

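A pair of values stood apart from the rest of their group of 5, both in replicate 3 of the libraries labelled spleen at 3 days. Idi1 measured 3306.2 normalised read counts there, against 2182.4 to 2383.3 in the other 4 libraries. Cyp51 measured 906.44 against 702.14 to 757. Dixon's criterion was applied to 48 groups and marked 2, where chance marks about 1 in 20. The 3 day rise of Idi1 held without that library (log2 fold change 0.44, limma adjusted p = 0.034).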

How the results depend on the processing

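Counts of the 8 genes called moved by more than 1.5 times as follows. Under unadjusted p with a 1.5-fold change, 2 were called in place of 1 at 1 day under the spleen label (Insig1 and Srebf2), 0 in place of 2 at 3 days and 0 in place of 1 between 14 and 1 day. These stood beside 1497, 620 and 943 of 18243 rows in turn. For the lymph node label at 1 day 0 were called in place of 1, beside 894 of 18215 rows. With only the groups compared, 0 were called at 3 days (spleen label, beside 0.767% of all rows) and 0 at 1 day (lymph node label, beside 1.59%). Library weights gave 4 at 3 days (Sqle, Idi1 and Cyp51 higher, Srebf2 lower, beside 25.9% of all rows), 0 for the lymph node label at 1 day (beside 158 of 18215 rows) and 1 (Idi1) in place of 0 for the difference between labels at 3 days (beside 11.3% of all rows). No filter gave 0 for the lymph node label at 1 day. The cause was not tested. Leaving out each replicate gave 1 to 2 calls at 3 days (spleen label), 0 to 1 at 1 day (lymph node label) and 0 to 1 for the label difference at 3 days (1, Idi1, without spleen-label replicate 1 at 3 days). Shares of all rows are not given for the fits without a filter or without a replicate.

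Same-numbered deviations correlated at over 0.1 in 13 of 30 pairs under the spleen label and 0 of 16 under the lymph node label. The 13 held all 12 pairs of replicates 1 to 4 among the untreated, 1 day and 14 day groups (0.108 to 0.468). Among the same groups they held 0 of 3 pairs of replicate 5 (-0.324 to 0.02). Between these groups and the 3 day group, pairs of replicates 1 to 4 ran from -0.496 to 0.0509. Not every pair passed, so the numbers were not taken as pairing. With the replicate block, the count was 0 for the lymph node label at 1 day (Hmgcs1 adjusted p = 0.087), 1 at 1 day and 2 at 3 days for the spleen label, and as without it elsewhere. All rows called in those 3 comparisons were 132 of 18215, 3039 of 18243 and 1000 of 18243 in turn. Of 1984 single-gene results over the alternatives, 1962 kept direction or stayed within error on the same side of the threshold, 17 lost a call, 5 gained one and 0 reversed. The lymph node label held 2 libraries at 1 day, which limits precision there.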
